A study of Mus musculus with 5 samples.

Results

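The genes described here are ribosome biogenesis factors, the proteins that transcribe, cut, modify and assemble ribosomal RNA. They were picked by gene name from a list of 46 factors. No measured value enters that rule, although the list was drawn up with earlier results of these data known. Of these, 44 had a row of that name in the data, of 31626 genes in all, and all 44 passed the filter on low values (11780 genes did so). Noc2l was not matched and was not analysed here. Nop58 was listed under its older symbol Nol5, found by its Ensembl ID, and is given beside the 44 without being counted among them.

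RNA was sequenced from 5 libraries of mouse common myeloid progenitors, blood precursors of granulocytes, monocytes, red cells and platelets. In 2 libraries the cells had been transduced with Cre and are labelled MLL1 -/-, here called Mll1 knockouts, and in 3 the cells were MLL1 flox/flox transduced with a control. Mll1 (also Kmt2a) encodes a histone methyltransferase. All 5 libraries shared the C57Bl/6 strain, transformation by a retroviral MSCV vector that carries the leukaemia gene MN1 and the marker GFP, growth in M3234 medium with serum (FBS) and the cytokines IL3, IL6 and SCF, and sorting on day 7. No age is given, the labels do not say whether libraries came from separate mice or cultures, and p-values therefore measure only the spread between these libraries, which may be technical. Cre exposure and loss of Mll1 went together, so their effects cannot be told apart. The question behind the comparison is how the MN1-transformed cells differ in expression once Mll1 is lost.

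A ribosome begins in the nucleolus, where RNA polymerase I copies the ribosomal DNA into a long precursor. Small nucleolar ribonucleoproteins (snoRNPs) then modify that precursor, those of the box C/D class by methylation and those of the box H/ACA class by pseudouridylation. A large assembly called the small-subunit processome forms on the precursor and cuts out the RNA of the small subunit, while other factors build the large subunit. The pathway is most active in growing and dividing cells, and the transcription factor MYC is known to raise many of its genes.

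Levels are in FPKM, a measure that divides the fragments of a gene by its length and by the total of the library. Different genes can thus be set side by side, though only roughly. The number of reads behind a value is not known, but at low values the step in FPKM that a single read adds was 0.98 to 1.017 times as large in the other libraries as in control replicate 1. Mll1 itself stood at 6.22 and 5.32 FPKM in the knockouts, against 9.67, 7.28 and 7.19 FPKM in the controls, a log2 difference of -0.41 with a limma adjusted p of 0.158. Which exons are floxed is not stated by the labels, and a gene-wide FPKM can miss a deletion of a few exons. The progenitor gene Kit stood at 61.01 and 57.1 FPKM in the knockouts, against 112, 75.4 and 64.6 FPKM in the controls. Cd34 stood at 216 and 212 FPKM in the knockouts, against 685, 600 and 587 FPKM in the controls. Both belong to a list of 12 myeloid progenitor markers that did not move in 1 direction. In limma at an adjusted p under 0.05, 3 of the 12 were higher and 2 lower (3.82% and 5.97% of all genes tested). The 15 lymphoid markers summed to 3.01 and 2.55 FPKM in the knockouts, against 5.65, 7.503 and 6.38 FPKM in the controls, and 2 of them, the T cell gene Cd3g and the B cell gene Pax5, were listed at 0 in every library. Control replicate 1 stood apart from the other controls. It had 11672 genes at 0, against 12694 to 13061 in the other libraries. Its summed FPKM was the lowest, at 579481 against 615802 to 642599. Over 16 neutrophil markers tested, its median level was 1.61 above that of the other controls on the log2(FPKM + 1) scale. Results on the factors are therefore given with and without that library.

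Of the 44 ribosome biogenesis factors, 2 rose in the knockouts and none fell, by limma on log2(FPKM + 1) with Benjamini-Hochberg adjustment over all genes and an adjusted p under 0.05. Utp20, a factor of the small subunit, and Grwd1, a factor of the large subunit, were the 2 that rose, each 1.45-fold by the ratio of mean FPKM. The share of factors that rose was near that of all genes tested, of which 3.82% rose and 5.97% fell. At an unadjusted p under 0.05, 9 factors were higher and none lower, where the same count over all genes was 12.5% higher and 17.3% lower. The median log2 difference over the 44 factors was 0.18, against -0.03 over all genes tested. By value 35 of the 44 were higher in the knockouts, where 46.5% of all genes tested were. In 22 factors both knockout libraries lay above every control (22.9% of all genes did), and in 1, Imp3, both lay below every control (29.4% of all genes did). No factor changed by as much as 2-fold, and every 95% interval excluded a 2-fold change in either direction. In bulk RNA of sorted cells, fewer cells of a type and less RNA per cell cannot be told apart.

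Control replicate 1 was the lowest of the 5 libraries in 35 of the 44 factors, where it was the lowest in 32.4% of all genes tested. The median factor was 0.25 lower in that library than in control replicates 2 and 3 on the log2 scale. Against control replicates 2 and 3 alone, the knockouts were higher by a median of 0.11, a smaller difference than that between control replicate 1 and its fellow controls. Without control replicate 1, 32 factors were higher and 12 lower by value, and 7 rose and 1 fell in limma. The background also grew without that library, to 11.9% of all genes higher and 18% lower. The 7 were Utp20, Grwd1, Heatr1, Nop16, Nop2, Rrp9 and Ubtf, and the 1 that fell was Imp3. With other settings the count of factors that rose was 5 after median-ratio scaling (5.07% of all genes higher, 5.27% lower), 4 after quantile normalization (4.4% higher, 4.79% lower) and 7 after a correction for transcript length and GC content (7.62% higher, 7.25% lower). At an adjusted p under 0.1 it was 6 (8.67% of all genes higher, 12% lower). No factor fell under these 4 settings. Between replicates, the median SD of a factor on the log2 scale was 0.04 in the knockouts, 0.18 in the controls and 0.09 in control replicates 2 and 3.

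**Figure D1:**
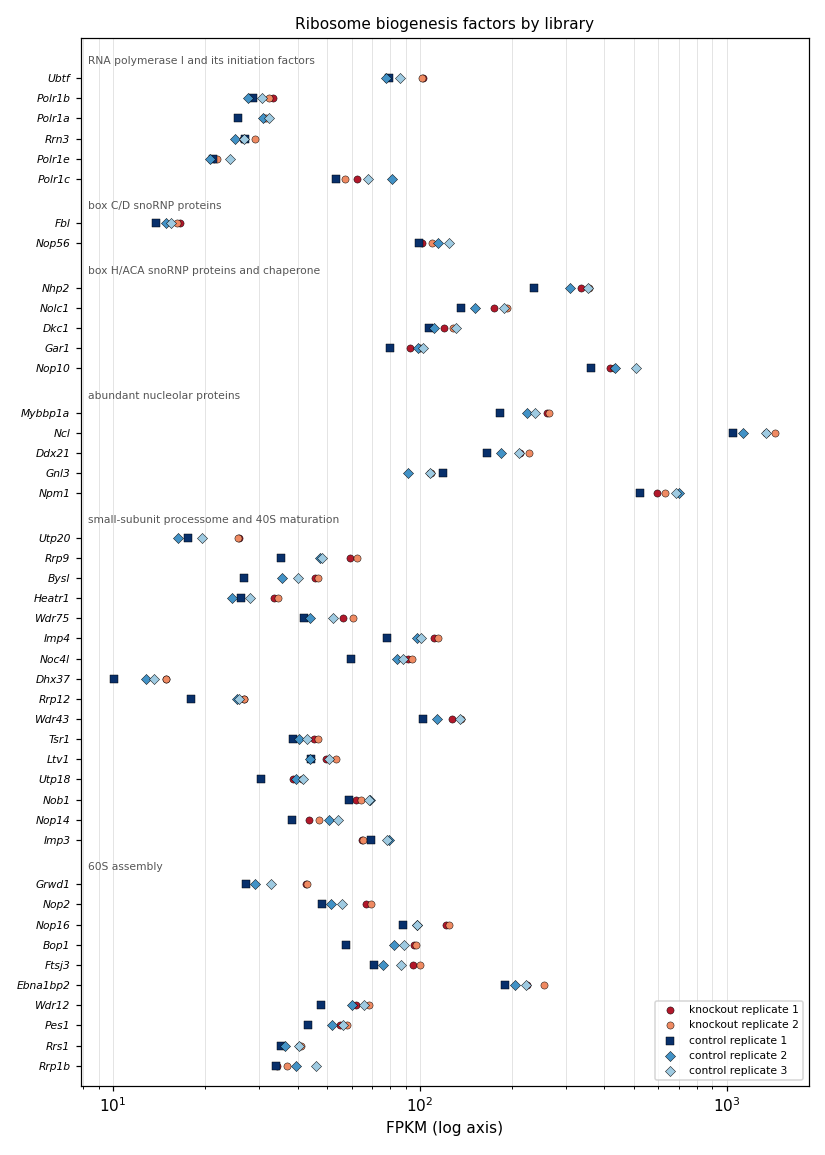
FPKM (log axis) of each of the 44 factors in every library, grouped by role, with 1 point per library. Control replicate 1 (dark squares) is the leftmost point in 35 rows, and in Utp20 and Grwd1 both knockout points lie to the right of every control.

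Utp20 encodes a large scaffold protein of the small-subunit processome. It stood at 25.8 and 25.7 FPKM in the knockouts, against 17.6, 16.3 and 19.5 FPKM in the controls. The groups did not overlap, and control replicate 1 was not the lowest control here. The log2 difference was 0.51 ± 0.095 (SE), with an adjusted p of 0.0399 in limma, and it was 0.50 without control replicate 1 (adjusted p = 0.0312). Grwd1 encodes a nucleolar WD-repeat protein whose yeast counterpart escorts a large-subunit protein into the nucleolus. Its level was 42.6 and 43.1 FPKM in the knockouts, against 27.1, 29.0 and 32.7 FPKM in the controls. Again the groups did not overlap. The log2 difference was 0.52 ± 0.099 (SE), with an adjusted p of 0.0409 in limma, and 0.46 without control replicate 1 (adjusted p = 0.0219). Leaving out either knockout library, control replicate 2 or control replicate 3 ended both calls. Their adjusted p then lay between 0.0685 and 0.3001 for Utp20 and between 0.063 and 0.308 for Grwd1, with log2 differences of 0.45 to 0.59. A gene without a protein product overlaps Grwd1 on the opposite strand, and the use of strand in the counting is not given in the sources used here.

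Promoter sequences of 4 factors are shown from RefSeq (build GRCm38.p6, 250 bases before to 50 after the start site, in the direction of transcription). Utp20 and Grwd1 are shown because they were the 2 that rose, Nop16 because its adjusted p came next, and Imp3 because it had the lowest log2 difference. Capitals mark CACGTG, the E-box that MYC with MAX and related factors are known to bind. It begins 38 bases into the transcript in Utp20 and 35 bases into it in Grwd1, and does not occur in the other two.
Utp20 (chr10:88826765-88827064, minus strand): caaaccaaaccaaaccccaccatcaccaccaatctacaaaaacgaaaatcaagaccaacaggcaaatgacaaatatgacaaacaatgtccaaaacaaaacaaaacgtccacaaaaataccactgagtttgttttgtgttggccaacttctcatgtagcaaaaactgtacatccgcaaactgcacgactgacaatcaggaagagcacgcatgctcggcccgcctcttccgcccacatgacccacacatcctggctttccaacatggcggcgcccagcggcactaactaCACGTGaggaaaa
Grwd1 (chr7:45830740-45831039, minus strand): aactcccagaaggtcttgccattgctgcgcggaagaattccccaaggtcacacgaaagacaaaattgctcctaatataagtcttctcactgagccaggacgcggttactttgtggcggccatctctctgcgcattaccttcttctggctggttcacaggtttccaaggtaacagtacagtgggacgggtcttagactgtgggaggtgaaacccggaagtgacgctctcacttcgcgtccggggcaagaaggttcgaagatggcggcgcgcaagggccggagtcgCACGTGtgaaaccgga
Nop16 (chr13:54590025-54590324, minus strand): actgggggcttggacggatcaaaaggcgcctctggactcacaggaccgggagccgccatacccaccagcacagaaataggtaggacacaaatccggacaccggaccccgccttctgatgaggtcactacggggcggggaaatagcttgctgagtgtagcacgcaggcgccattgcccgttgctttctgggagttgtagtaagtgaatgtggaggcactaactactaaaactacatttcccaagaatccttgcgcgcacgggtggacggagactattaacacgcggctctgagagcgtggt
Imp3 (chr9:56937250-56937549, plus strand): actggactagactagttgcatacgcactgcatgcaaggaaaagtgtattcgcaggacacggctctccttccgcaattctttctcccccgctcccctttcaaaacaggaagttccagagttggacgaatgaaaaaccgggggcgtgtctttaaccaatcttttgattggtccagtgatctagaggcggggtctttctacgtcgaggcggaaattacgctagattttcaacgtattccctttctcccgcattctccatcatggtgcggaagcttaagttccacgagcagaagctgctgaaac

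The table of promoters matched 39 of the 44 factors by symbol, and 11 of these (28.2%) held CACGTG in the window. CACGTG was present in 8.09% of all promoters listed and in 12.5% of those of tested genes. In a second list of other ribosome biogenesis genes, described below, 85 had a promoter and 17.6% of these held CACGTG. The 11 were Utp20, Grwd1, Nop2, Pes1, Imp4, Ltv1, Mybbp1a, Rrn3, Tsr1, Utp18 and Wdr43. Their log2 differences ran from 0.08 to 0.52 with a median of 0.18, and those of the 28 factors without the motif ran from -0.22 to 0.49 with a median of 0.20. The medians of both sets thus lay close together. By value all 11 with the motif were higher in the knockouts, as were 20 of the 28 without it. A part of the motif in these differences was not tested. Other motifs were searched on both strands. CCGGAAG, a core bound by ETS factors, occurred in 35.9% of the 39 factors, 21.5% of tested genes with a promoter and 9.93% of all promoters listed. GGGCGG, the GC box, occurred in 74.4%, 70.8% and 38.2% of the same sets, and TATAAA, the TATA box, in 5.13%, 8.18% and 15.7%. Among the 85 other biogenesis genes, CCGGAAG occurred in 45.9%, GGGCGG in 63.5% and TATAAA in 5.88%. Occurrences of different motifs may overlap. The median base composition of these windows was 58.3% G or C in the factors and 61% in tested genes. A match describes the letters and not binding.

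**Figure D2:**
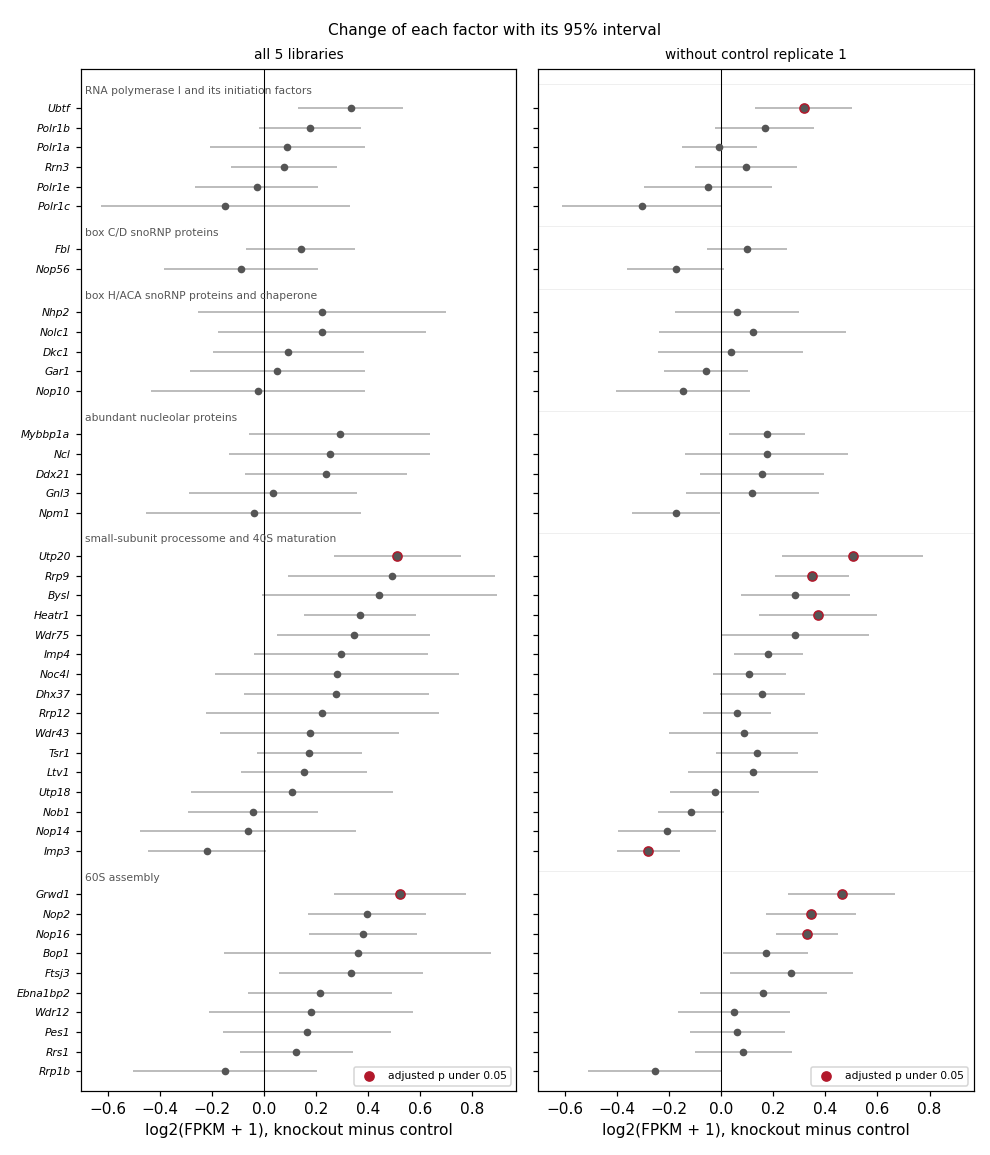
Difference in log2(FPKM + 1) of each factor, knockouts minus controls, as points with 95% intervals, with all 5 libraries (left) and without control replicate 1 (right). Red points have an adjusted p under 0.05, 2 on the left and 8 on the right.

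None of the 6 genes of RNA polymerase I and its initiation factors was called (3.82% of all genes tested rose and 5.97% fell). Ubtf, which opens ribosomal DNA for transcription, came nearest, at 103 and 101 FPKM in the knockouts, against 79.2, 77.6 and 86.2 FPKM in the controls. Its groups did not overlap, and the log2 difference was 0.33 (95% interval 0.13 to 0.53, limma adjusted p = 0.0627). Without control replicate 1 the difference was 0.32 and the adjusted p 0.0379. Polr1b, the second-largest subunit, stood at 33.2 and 32.2 FPKM in the knockouts, against 28.5, 27.6 and 30.5 FPKM in the controls. This was the other gene of the group without overlap, with a limma adjusted p of 0.204. Both knockouts lay above every control in 22.9% of all genes tested. Polr1a, the largest and catalytic subunit, had 31.1 and 31.6 FPKM in the knockouts, against 25.6, 30.8 and 32.3 FPKM in the controls. The knockouts lay inside the range of the controls, and the log2 difference of 0.09 went to -0.01 without control replicate 1. Rrn3, the factor that brings the polymerase to the promoter, had 26.6 and 29.0 FPKM in the knockouts, against 27.0, 25.0 and 26.8 FPKM in the controls. Polr1c, a subunit shared with RNA polymerase III, had 62.6 and 57.1 FPKM in the knockouts, against 53.2, 81.1 and 67.7 FPKM in the controls, a log2 difference of -0.15 (95% interval -0.63 to 0.33). The controls of Polr1c spread more widely than the groups differed. Polr1e, a further subunit, averaged 21.6 ± 0.327 FPKM in the knockouts (SD, n = 2) and 22.03 ± 1.83 FPKM in the controls (SD, n = 3).

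The core proteins of box C/D snoRNPs, which methylate ribosomal RNA, were not called either. Fbl, the methyltransferase fibrillarin, stood at 16.5 and 16.2 FPKM in the knockouts, against 13.8, 14.9 and 15.5 FPKM in the controls, without overlap (log2 difference 0.14, limma adjusted p = 0.311). Nop56, a scaffold of the same particle, had 102 and 109 FPKM in the knockouts, against 99.8, 115 and 124 FPKM in the controls. Its knockout values lay inside the range of the controls (log2 difference -0.09, adjusted p = 0.651). Nop58, the partner scaffold listed as Nol5, had 202 and 213 FPKM in the knockouts, against 182, 183 and 216 FPKM in the controls (log2 difference 0.10, adjusted p = 0.57). By FPKM, the level of Fbl was thus far below those of both partners in every library. The annotation and the treatment of multiply mapped reads are not known, and both can shift FPKM between genes.

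Box H/ACA snoRNP proteins, which take part in pseudouridylation and also hold the telomerase RNA, overlapped between the groups in all 5 cases. Over all genes tested, both knockouts lay above every control in 22.9% and below every control in 29.4%. Dkc1, the pseudouridine synthase dyskerin, stood at 119.7 and 128 FPKM in the knockouts, against 107, 111 and 131 FPKM in the controls. The log2 difference was 0.09 (95% interval -0.20 to 0.38, limma adjusted p = 0.628). Nhp2, a core protein, had 335 and 355 FPKM in the knockouts, against 236, 309 and 353 FPKM in the controls. Control replicate 1 was the low value, and without it the log2 difference of 0.22 was 0.06. Nop10, the smallest core protein, had 416 and 431 FPKM in the knockouts, against 362, 434 and 506 FPKM in the controls. The controls of Nop10 again spread more widely than the group means differed. Gar1 averaged 96.7 ± 5.05 FPKM in the knockouts (SD, n = 2) and 93.7 ± 12.2 FPKM in the controls (SD, n = 3). Nolc1, a nucleolar chaperone of these particles, averaged 184 ± 13.0 FPKM in the knockouts (SD, n = 2) and 158 ± 26.5 FPKM in the controls (SD, n = 3), with an adjusted p of 0.396.

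None of the 5 abundant nucleolar proteins was called (3.82% of all genes tested rose and 5.97% fell). Ncl and Npm1 had the highest levels of all factors. Ncl, nucleolin, an RNA-binding protein of the nucleolus, had 1344 and 1443 FPKM in the knockouts, against 1050, 1129 and 1349 FPKM in the controls. The lower knockout library lay just under the highest control, and the log2 difference was 0.25 (95% interval -0.13 to 0.64, limma adjusted p = 0.323). Under quantile normalization the sign turned, to -0.06. Npm1, the histone and ribosome chaperone nucleophosmin, had 592 and 632 FPKM in the knockouts, against 522, 698 and 682 FPKM in the controls. Both knockout values fell between control replicate 1 and the other controls (log2 difference -0.04, adjusted p = 0.89). Mybbp1a, a nucleolar partner of MYB proteins, averaged 261 ± 2.67 FPKM in the knockouts (SD, n = 2) and 215 ± 29.1 FPKM in the controls (SD, n = 3). Its groups did not overlap, nor did those of Ddx21, an RNA helicase, at 219.7 ± 9.64 FPKM in the knockouts (SD, n = 2) and 187 ± 22.2 FPKM in the controls (SD, n = 3). Adjusted p was 0.228 for Mybbp1a and 0.262 for Ddx21. Gnl3, the GTPase nucleostemin, was the 1 factor in which control replicate 1 stood highest of the 5 libraries. It had 108 and 109 FPKM in the knockouts, against 119, 91.9 and 108 FPKM in the controls.

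Among the 16 factors of the small-subunit processome and small-subunit maturation, Utp20 was the 1 that rose, and in 10 both knockouts lay above every control (3.82% and 22.9% of all genes tested). The median log2 difference of these 16 was 0.25. Rrp9, a protein of the U3 snoRNP, had 59.2 and 62.6 FPKM in the knockouts, against 35.2, 47.3 and 47.9 FPKM in the controls. The groups did not overlap, and the log2 difference of 0.49 had a limma adjusted p of 0.11, or 0.35 and 0.0191 without control replicate 1. Bysl, the small-subunit assembly factor bystin, had 45.6 and 46.6 FPKM in the knockouts, against 26.8, 35.5 and 40.004 FPKM in the controls. Here too the groups did not overlap, and control replicate 1 was the lowest by a wide margin (log2 difference 0.44, adjusted p = 0.173, and 0.28 without that library). Heatr1, which links transcription by RNA polymerase I to processing, had 33.6 and 34.5 FPKM in the knockouts, against 26.2, 24.4 and 27.9 FPKM in the controls. Its log2 difference was 0.37 with an adjusted p of 0.0586, and 0.37 with 0.0402 without control replicate 1, which was not the lowest control. Wdr75 and Wdr43 belong to the same early module as Heatr1. Wdr75 averaged 58.4 ± 3.11 FPKM in the knockouts (SD, n = 2) and 45.96 ± 5.28 FPKM in the controls (SD, n = 3), and Wdr43 132 ± 6.57 FPKM in the knockouts and 117 ± 16.5 FPKM in the controls.

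Imp3 and Imp4, partners in the U3 snoRNP, stood on opposite sides of 0. Imp3 had 64.7 and 65.1 FPKM in the knockouts, against 69.3, 79.7 and 78.2 FPKM in the controls. Both knockouts lay below every control, and the log2 difference was -0.22 (95% interval -0.44 to 0.01, limma adjusted p = 0.18), or -0.28 without control replicate 1 (adjusted p = 0.0205). Imp4 averaged 113 ± 2.27 FPKM in the knockouts (SD, n = 2) and 92.5 ± 12.3 FPKM in the controls (SD, n = 3), a log2 difference of 0.29 with an adjusted p of 0.21. Noc4l and Nop14, which bind each other in yeast, were not called. Noc4l averaged 92.9 ± 1.84 FPKM in the knockouts (SD, n = 2) and 77.4 ± 15.3 FPKM in the controls (SD, n = 3). Nop14 averaged 45.2 ± 2.54 FPKM in the knockouts and 47.7 ± 8.22 FPKM in the controls. In Noc4l the groups did not overlap, and in Nop14 they did.

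The helicase gene Dhx37, which acts on the U3 snoRNA, had the lowest level of all 44 factors, at 14.9 ± 0.00396 FPKM in the knockouts (SD, n = 2) and 12.2 ± 1.85 FPKM in the controls (SD, n = 3). The export factor gene Rrp12 averaged 26.8 ± 0.0152 FPKM in the knockouts and 23.1 ± 4.43 FPKM in the controls. In both genes the knockout replicates were almost equal and control replicate 1 was well below the rest. Tsr1, a GTPase-like protein of late small-subunit assembly, averaged 45.9 ± 1.18 FPKM in the knockouts and 40.6 ± 2.25 FPKM in the controls, without overlap. Ltv1, another late factor, averaged 51.4 ± 2.63 FPKM in the knockouts and 46.2 ± 3.74 FPKM in the controls. Nob1, the endonuclease that makes the final cut of the small-subunit RNA, averaged 63.3 ± 1.53 FPKM in the knockouts and 65.3 ± 5.71 FPKM in the controls. Utp18, a processome protein, averaged 39.9 ± 1.88 FPKM in the knockouts and 37.2 ± 5.97 FPKM in the controls. In Ltv1, Nob1 and Utp18 the groups overlapped.

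Of the 10 large-subunit factors, Grwd1 was the 1 that rose, and 7 had both knockouts above every control (3.82% and 22.9% of all genes tested), with a median log2 difference of 0.28. Nop16 had 122 and 124 FPKM in the knockouts, against 88.2, 97.7 and 97.6 FPKM in the controls. Its log2 difference was 0.38 (95% interval 0.17 to 0.59) and its limma adjusted p of 0.052 just missed the threshold, and was 0.0149 without control replicate 1. Nop2, a methyltransferase of the large ribosomal RNA, had 67.1 and 69.2 FPKM in the knockouts, against 47.9, 51.2 and 55.7 FPKM in the controls. The log2 difference was 0.40 with an adjusted p of 0.056, and 0.35 with 0.0271 without that library. Neither gene overlapped between the groups. Ftsj3, a nucleolar methyltransferase, averaged 97.9 ± 3.78 FPKM in the knockouts (SD, n = 2) and 77.7 ± 8.18 FPKM in the controls (SD, n = 3), with an adjusted p of 0.116.

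Bop1, Pes1 and Wdr12 form the PeBoW complex, which is needed to mature the large-subunit RNA. Bop1 had 95.6 and 97.4 FPKM in the knockouts, against 57.5, 82.3 and 89.1 FPKM in the controls. Pes1 had 54.9 and 57.9 FPKM in the knockouts, against 43.4, 51.7 and 56.3 FPKM in the controls. Wdr12 had 62.1 and 68.3 FPKM in the knockouts, against 47.7, 60.3 and 65.7 FPKM in the controls. In all 3 genes control replicate 1 was the lowest library, and in Pes1 and Wdr12 the groups overlapped. Log2 differences were 0.36 for Bop1, 0.16 for Pes1 and 0.18 for Wdr12 with limma adjusted p from 0.295 to 0.484, and 0.17, 0.06 and 0.05 without control replicate 1. Ebna1bp2 averaged 239 ± 20.99 FPKM in the knockouts (SD, n = 2) and 205 ± 16.1 FPKM in the controls (SD, n = 3). Rrs1, which in yeast helps to bring in the smallest ribosomal RNA of the large subunit, averaged 40.7 ± 0.453 FPKM in the knockouts and 37.3 ± 2.64 FPKM in the controls. Rrp1b was lower by value, at 34.2 and 36.8 FPKM in the knockouts, against 34.0, 39.5 and 45.8 FPKM in the controls, with overlap (log2 difference -0.15, adjusted p = 0.517).

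**Figure D3:**
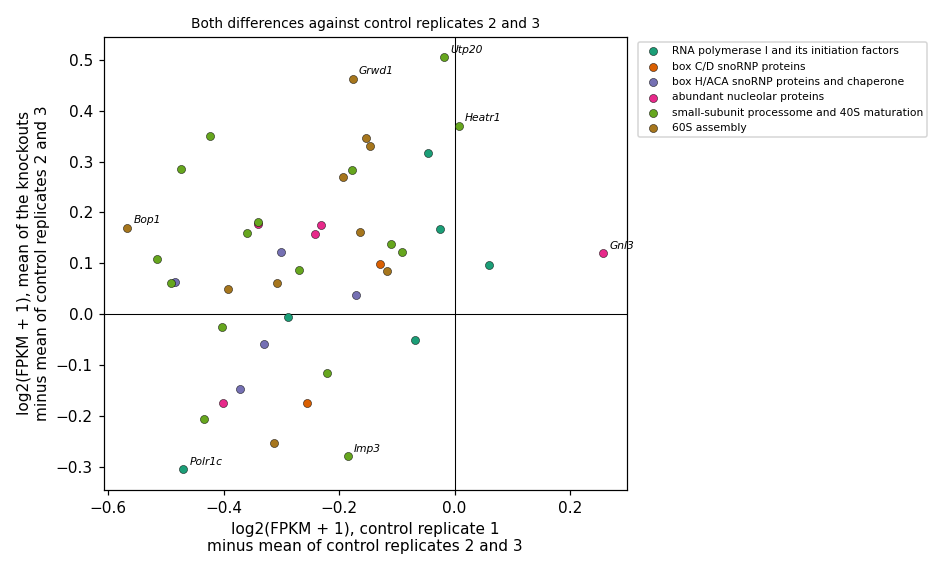
Each point is 1 of the 44 factors, coloured by role, with the log2(FPKM + 1) of control replicate 1 (x) and the mean of the knockouts (y), both minus the mean of control replicates 2 and 3. Both axes share those 2 controls. Most points lie left of 0, with a median x of -0.25 and a median y of 0.11.

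The factors were high in level. Their median of mean FPKM over the 5 libraries was 62.6, against 14.3 for all genes tested, and 14 factors averaged over 100 FPKM. Ncl, Npm1, Nop10 and Nhp2 were the 4 highest, and Dhx37, Fbl and Polr1e were the lowest in the knockouts. By the GENCODE M21 annotation, matched by gene ID, 6 of the 44 (13.6%) contained a snoRNA gene on their own strand, against 1.89% of the tested genes with an annotation. These hosts were Ncl, Nop56, Gnl3, Dkc1, Tsr1 and Wdr43. Among others, Ncl held Snora75 and Snord82, Nop56 held Snord57 and Snord110, and Gnl3 held Snord19 and Snord69. The log2 differences of the 6 hosts ran from -0.09 for Nop56 to 0.25 for Ncl. None was called (3.82% of all genes tested rose and 5.97% fell). A protein-coding gene overlapped 14 of the 44 on the opposite strand, Heatr1, Rrp9, Bysl and Bop1 among them, so reads of the partner may enter those values. Near-identical copies elsewhere were annotated for Npm1, Pes1, Imp3 and Rrs1, and their values are uncertain, since how multiply mapped reads were counted was not stated by the labels. The longest transcripts of the factors had a median length of 3065 bases, against 3158 for tested genes.

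A second list held other ribosome biogenesis genes, of which 107 were tested. Rrp7a, a small-subunit processome gene, was the 1 that rose, and none fell (3.82% of all genes rose and 5.97% fell). It stood at 30.2 and 31.4 FPKM in the knockouts, against 19.9, 23.3 and 22.2 FPKM in the controls, without overlap. Its log2 difference was 0.48 ± 0.093 (SE, limma adjusted p = 0.0419). The median log2 difference over the 107 was 0.15, and 82 of them were higher by value. In 46 of the 107 both knockouts lay above every control (22.9% of all genes did). Control replicate 1 was the lowest library in 67 of the 107, and its median over the list was 0.20 below control replicates 2 and 3. By group, the median was 0.20 in 38 small-subunit genes, 0.15 in 45 large-subunit genes, 0.09 in 15 genes of the RNA exosome and its cofactors, which trim ribosomal RNA, and -0.02 in 9 further genes of RNA polymerase I and its factors. Without control replicate 1, 11 of the 107 rose and 3 fell (11.9% and 18% of all genes).

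Myc was not called. It stood at 17.6 and 18.5 FPKM in the knockouts, against 50.9, 19.8 and 26.7 FPKM in the controls, with control replicate 1 by far the highest (log2 difference -0.70, 95% interval -1.71 to 0.30, limma adjusted p = 0.294). Its relative Mycn fell, to 0.218 and 0.353 FPKM in the knockouts, against 2.22, 1.78 and 1.22 FPKM in the controls (adjusted p = 0.0416). Mlx, which encodes a partner of MXD and related factors, rose to 53.9 and 59.0 FPKM in the knockouts, against 31.0, 33.0 and 38.2 FPKM in the controls (adjusted p = 0.0285). These were the genes called of 11 of the MYC network (3.82% of all genes tested rose and 5.97% fell). Mycn and Mlx were named after their values were seen. Control replicate 1, the library with the highest Myc level, also had the lowest levels of most factors. This rests on 1 library that stood apart in other genes too, and a link was not tested.

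Lists of markers for proliferation and for blood cell types were set beside these values, and their part in the results was not tested. None of 15 proliferation markers was called (3.82% of all genes tested rose and 5.97% fell). At an unadjusted p under 0.05 in limma, 2 were higher and none lower (12.5% and 17.3% of all genes tested). Their summed level was 1806 and 1895 FPKM in the knockouts, against 1528, 1799 and 1837 FPKM in the controls, so control replicate 1 was the lowest here too, in 12 of the 15 genes. Of 12 myeloid progenitor markers, 3 rose and 2 fell (3.82% and 5.97% of all genes tested). Their sum was 1163 and 1156 FPKM in the knockouts, against 1656, 1496 and 1401 FPKM in the controls. In each control Cd34 was the largest part of that sum. Both knockouts lay above every control in 3 of the 12, Fcgr3, Csf2rb and Csf2rb2, and below every control in 5. Over all genes tested these shares were 22.9% and 29.4%. Fcgr3 stood at 215 and 218 FPKM in the knockouts, against 88.8, 72.2 and 75.04 FPKM in the controls. Flt3, a receptor of early progenitors, stood at 9.51 and 7.69 FPKM in the knockouts, against 93.3, 96.3 and 83.5 FPKM in the controls.

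Of 16 neutrophil markers tested, 4 rose and none fell. The list was drawn up for mature neutrophils, but Mmp9 reached at most 0.0503 FPKM in any library and Ly6g at most 1.09 FPKM. Mmp8 stood at 52.5 and 54.4 FPKM in the knockouts, against 38.7, 65.0 and 64.3 FPKM in the controls. The list is therefore not read as a sign of mature neutrophils. For comparison with this list and those that follow, 3.82% of all genes tested rose and 5.97% fell. The sum over the 20 markers with a row was 25082 and 23478 FPKM in the knockouts, against 7887, 1604 and 1938 FPKM in the controls, and Ly6g, Mmp9 and Retnlg were each listed at 0 in 1 control. S100a8 and S100a9 made up most of that sum in the knockouts and in control replicate 1. In control replicates 2 and 3 the highest single marker was Mpo, at 694 and 775 FPKM. Control replicate 1 lay between the other controls and the knockouts in 9 of the 20 genes. It lay above both knockouts in Camp, Ngp, Ltf and Chi3l3, and below both other controls in Mmp8, Ly6g, Trem3 and Csf3r. Erythroid markers rose in 5 of 12 tested, with none lower, and their sum was 197 and 215 FPKM in the knockouts, against 188, 163 and 162 FPKM in the controls. Tfrc, which dividing cells also express, made up most of it except in control replicate 1, where it had 93.6 of 188 FPKM. In the globin genes Hba-a1, Hba-a2, Hbb-b1 and Hbb-b2, control replicate 1 lay above both knockouts. Mast cell and basophil markers rose in 4 of 8 tested, with none lower, and summed to 1498 and 1522 FPKM in the knockouts, against 774, 1027 and 930 FPKM in the controls. Monocyte and macrophage markers fell in 2 of 10 and rose in none, and their median log2 difference was 0.26. At an unadjusted p under 0.05 in limma, 3 were higher and 2 lower (12.5% and 17.3% of all genes tested). The sum of the monocyte and macrophage markers was 627 and 516 FPKM in the knockouts, against 578, 147 and 134 FPKM in the controls. Ly6c2 and Lyz2 made up most of it in the knockouts and in control replicate 1. Of the 10 tested, both knockouts lay above every control in 4 and below every control in 3, Ccr2, Irf8 and Klf4. Over all genes tested these shares were 22.9% and 29.4%. Of the lymphoid markers only Rag2 passed the filter, and it fell.

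**Figure D4:**
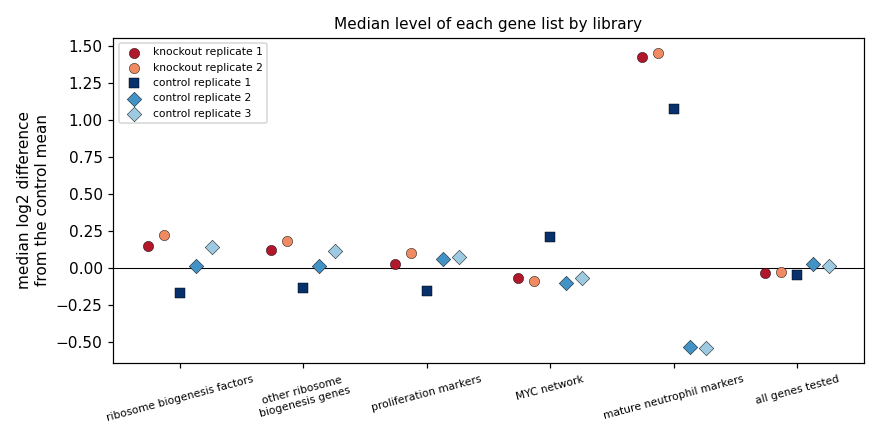
Median over the tested genes of each list of the log2(FPKM + 1) difference from the mean of the controls, with 1 point per library. In the biogenesis factors the knockouts stand at 0.15 and 0.23 and control replicates 1, 2 and 3 at -0.17, 0.01 and 0.14. In neutrophil markers the knockouts stand at 1.43 and 1.45 and control replicate 1 at 1.07.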

How the data were processed

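Sorted cells were profiled by stranded mRNA sequencing, as the labels' protocols state. The authors deposited 1 FPKM value for each of 31626 Ensembl genes in each library. CASAVA 1.8.2, GSNAP, SAMtools, Cuffdiff and build mm9 are named by the submitters' processing notes. No source used here gives the annotation, the strand setting or the treatment of multiply mapped reads. For 16 genes a library held 999999999, read as a failed estimate, and these were dropped (no factor was among them). The remaining genes were kept where 2 or more libraries reached 1 FPKM. On log2(FPKM + 1) of the deposited values, limma 3.58.1 (R 4.3.3) compared knockouts with controls over all 5 libraries by empirical Bayes with an intensity trend, two-sided, with Benjamini-Hochberg adjustment over 11780 genes. The script was run on simulated data in which every library had the same spread for a gene and none stood apart. That setting differs from these data, so the run does not show how reliable the calls are here. Fold changes on this scale understate those of low genes, and without counts no counting error could be given.

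The factors and the gene lists were chosen with earlier results of these data known. Of other genes, Flt3, Fcgr3, Csf2rb, Csf2rb2, S100a8, S100a9, Mpo, Tfrc, Ly6c2, Lyz2, Ccr2, Irf8, Klf4 and Rag2 were named after their values were seen. Kit, Cd34, Camp, Ngp, Ltf, Chi3l3, Mmp8, Mmp9, Ly6g, Trem3, Csf3r and the globin genes were not named in advance either. Values in every library are given for called factors, the 4 highest and 4 lowest log2 differences, the 4 highest levels, and a fixed set (Polr1a, Polr1b, Ubtf, Rrn3, Fbl, Dkc1, Ncl, Npm1, Bop1, Pes1 and Wdr12). Those of Gnl3, Heatr1, Nop16 and Nop2 were added after their values were seen, and the rest are given as means. Other settings tried were another scaling, filter, pseudocount or empirical Bayes step, a replicate block, leaving out single libraries, the threshold and, chosen after seeing the data, a loess fit of each library on length and GC of transcripts (11201 genes). A copy was a gene elsewhere whose transcript matched at least 50% of the longest transcript at 90% identity or more, in GENCODE M21 (GRCm38). Promoter coordinates are of GRCm38 and not of the files' mm9.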

Additional observations from a re-analysis of the deposited data

How the results depend on the processing

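The median log2 difference of the 44 factors was positive under every alternative run, from 0.11 (without control replicate 1) to 0.27 (without control replicate 3 and with the replicate block). The counts of calls were less stable. Over all genes, 1153 were called as tested, 2435 at an adjusted p under 0.1, 497 with no filter on low values, 55 with the replicate block, and 0 to 3516 with 1 library left out. Factors that rose numbered 2 as tested, 6 at an adjusted p under 0.1, 5 after median-ratio scaling, 4 after quantile normalization, 7 after the length and GC correction, 0 with no filter, 0 with the replicate block, and 0 to 7 with 1 library left out. Factors that fell numbered 0, or 0 to 1 with 1 library left out. Other biogenesis genes that rose numbered 1 as tested, 12 at an adjusted p under 0.1, 8 after median-ratio scaling, 4 after quantile normalization, 17 after the length and GC correction, 2 with a mean of at least 5 FPKM, 2 with robust empirical Bayes, 0 without the trend, 0 with no filter, 0 with the replicate block, and 0 to 11 with 1 library left out. Those that fell numbered 0, or 1 at an adjusted p under 0.1 and 0 to 3 with 1 library left out. Counts of 0 in limma stood beside 2537 genes at an unadjusted p under 0.05 with the block, 4518 with no filter and 1669 without knockout replicate 2. The filter and the threshold change how many genes are tested or pass by construction, and otherwise the cause was not tested. With 1 knockout library left, that library is assumed to vary like the controls. Of all calls, 39% were higher as tested (450 higher, 703 lower). Median-ratio scaling made that share 49% (597 higher, 621 lower), and correcting for length and GC made it 51.3% (854 higher, 812 lower).

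The replicate numbers of the labels share only a number. Deviations of same-numbered libraries correlated at 0.037 and 0.012 across genes, and the block, which leaves control replicate 3 without a partner, ended the calls of Utp20 (adjusted p = 0.134) and Grwd1 (adjusted p = 0.123).

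Signs turned in 9 factors, none of which was called. Median-ratio scaling gave 0.0087 for Polr1e and 0.015 for Nop10, quantile normalization 0.0093 for Polr1e, -0.0076 for Gar1, -0.062 for Ncl and -0.033 for Gnl3, and the length and GC correction 0.028 for Nop10 and 0.025 for Npm1. The replicate block gave 0.037 for Polr1e, 0.095 for Nop10, 0.019 for Npm1 and 0.034 for Nop14. With 1 library left out, the log2 difference ran over these ranges: -0.0065 to 0.15 for Polr1a, -0.069 to 0.037 for Polr1e, -0.15 to 0.095 for Nop10, -0.059 to 0.12 for Gar1, -0.17 to 0.035 for Npm1, -0.067 to 0.12 for Gnl3, -0.21 to 0.034 for Nop14 and -0.025 to 0.20 for Utp18. Absolute depth is unknown, so what depth limits cannot be given.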
